A study of Mus musculus with 12 samples.

Results

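Bone-associated cells (BAC) are the cells released when hind-limb bone fragments of wild-type mice are digested with collagenase I. In 3 libraries, named BAC nondepleted here, the released cells were used as they came. In the other 3, named BAC depleted, cells carrying CD45, Ly6C or F4/80 were first removed with magnetic beads. These 6 of the 12 libraries of the series were compared with each other, and the other 6, from bone marrow cultures, were not used in the comparison. All 6 share the wild-type genotype, the tissue and the RNA-seq protocol, with 50 ng of total RNA entering a low-input library kit. The labels number the libraries 1 to 3 in each group and do not say whether they came from separate animals or pools, so a p-value here reflects how far these samples differ among themselves, and part of that may be technical. The labels give 1 culture protocol for all samples, alpha MEM without ascorbic acid at low oxygen. The time between harvest and lysis is not stated. Removal of cells and the handling that the magnetic step adds cannot be told apart in this design.

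CD45, encoded by Ptprc, is a phosphatase on the surface of all nucleated blood cells. F4/80, encoded by Adgre1, marks mouse macrophages, and Ly6C, encoded by Ly6c1 and Ly6c2, marks monocytes and also some endothelial and stromal cells. Macrophages live in contact with stromal cells on bone surfaces, adhere firmly to plastic, and commonly remain in cultures of mesenchymal stromal cells, the non-haematopoietic precursors of bone, cartilage and fat that also supply the blood-forming niche with factors such as Cxcl12. Adult macrophages of this kind can divide in culture when the growth factor Csf1 is present.

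Each library held between 28391422 and 30061212 counts, and levels below are CPM, the usual depth-scaled counts, on scaled library sizes, listed in the order of the library numbers. Where 3 values are set against 3 others, the depleted libraries come first. Libraries of 1 group resembled each other more closely without depletion (Pearson r of log2 CPM across genes 0.959 to 0.979) than with it (0.937 to 0.945), and the correlation between groups was 0.785 to 0.815. Genes whose level in 1 library was at least 2-fold above both others of its group numbered 760, 686 and 437 in depleted 1, 2 and 3, against 247, 179 and 360 in nondepleted 1, 2 and 3. Depleted 1 also had the Xist-positive, Y-gene-negative pattern of female cells, with Xist at 1334, 0.374 and 0.624 CPM in the depleted libraries and Ddx3y at 0, 152 and 228 CPM. Nondepleted libraries had the male pattern (Ddx3y 129.5, 149.6 and 146 CPM), so depleted 1 had another source than the other 5 libraries, and results are given without it where that changes a call. Stromal genes were high in every library: Pdgfra, a receptor of stromal progenitors, stood at 489, 564 and 255 CPM with depletion and at 372, 198 and 156 CPM without it, and the limb mesenchyme factor Prrx1 at 669, 574 and 574 CPM with depletion and 544, 406 and 537 CPM without it. Of the markers of mature bone cells, osteocalcin (Bglap) had 5 counts over the depleted and 1 over the nondepleted libraries. Sclerostin (Sost), the product of osteocytes, had 0. Other genes of bone-forming cells, such as Ibsp and Spp1, were detected at higher levels and are given below.

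Depletion changed the RNA of these preparations widely, and the deepest changes were losses. Of 14638 genes tested, 3556 differed (24.3%) at an adjusted p under 0.05 by the quasi-likelihood test of edgeR (Benjamini-Hochberg), which gives every adjusted p below. After depletion 2080 genes were lower (14.2%) and 1476 were higher (10.1%). Past 8-fold, 664 of the calls were falls and 169 were rises. The genes that fell at least 32-fold, 454 in number, held 4.30%, 4.04% and 3.30% of all counts in the nondepleted libraries and 0.0107%, 0.0148% and 0.00657% in the depleted ones. Over all genes tested the median log2 fold change (depleted minus nondepleted) was 0.05, with quartiles of -0.42 and 0.52. The 3 libraries of one group all lay above or all below those of the other for 47.8% of genes, higher after depletion for 22.5% and lower for 25.3%. In the nondepleted libraries alone 1123 tested genes passed the filter on low counts, and 621 of them were called, all lower. In the depleted libraries alone 570 passed, and 215 of them were called, all higher. For these genes the filter itself favoured the direction of the call. Without depleted 1 the calls numbered 3228 (1974 lower, 1254 higher). Without nondepleted 1, 2 or 3 they numbered 1516, 1373 and 1924, of which 1142, 1058 and 1409 were lower and 374, 315 and 515 higher.

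**Figure D1:**
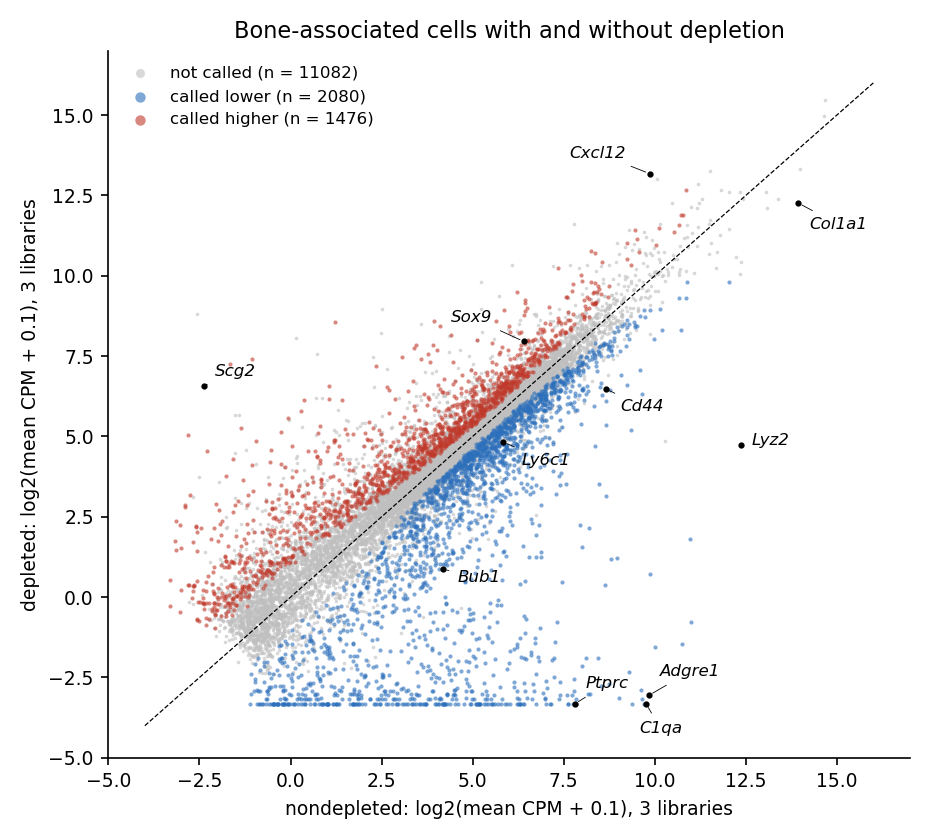
Mean level of each tested gene in the 3 nondepleted libraries (x axis) and the 3 depleted libraries (y axis), both as log2 of CPM plus 0.1, with the dashed line at equal levels. The 2080 genes called lower include a band along the bottom edge with no or almost no counts after depletion, where Ptprc, Adgre1 and C1qa lie, while the 1476 genes called higher lie closer to the line.

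Of the 4 genes encoding the targeted antigens, 2 fell to the detection limit. Ptprc stood at 0, 0 and 0 CPM after depletion and 250.2, 238 and 182 CPM without it, at least 6568-fold lower against a floor of 3 counts over the depleted group (adjusted p = 0.000231). Adgre1 stood at 0.0615, 0 and 0 CPM after depletion and 970.3, 918 and 864 CPM without it, lower by 40282-fold, with a 95% counting interval of 11151 to 332623 (adjusted p = 0.000116). For both genes every depleted library lay below every nondepleted one, and the 3 depleted libraries held 0 and 2 counts in all. Ly6C genes did not follow them. Ly6c1 stood at 14.9, 44.9 and 24.8 CPM after depletion and 28.9, 50.5 and 92.3 CPM without it, groups that overlapped, with a log2 fold change of -1.02 ± 0.56 that did not pass (adjusted p = 0.224). Ly6c2, the form typical of monocytes, had 4 counts in the depleted and 2 in the nondepleted libraries and was not tested. Ly6c1 and Ly6c2 are close copies of one another, so their counts are uncertain. Another member of the Ly6 family, Ly6e, fell from 629.7, 369.8 and 217 to 67.0, 89.6 and 49.5 CPM (log2 fold change -2.56 ± 0.45, adjusted p = 0.0133). Ly6a, which encodes Sca-1, stood at 99.3, 167 and 112 CPM after depletion and 202, 203 and 195 CPM without it and did not pass (adjusted p = 0.0694), but was called lower without depleted 2 (adjusted p = 0.00926).

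Macrophage transcripts were nearly absent after depletion. Summed over the 30 listed macrophage genes, the level was 37.9, 88.4 and 32.6 CPM in the depleted libraries against 14536, 16125 and 14039 CPM in the nondepleted ones, with depleted 2 the highest of its group. All 28 listed genes that could be tested were lower, beside 14.2% of all genes, but 22 of them passed the filter through the nondepleted libraries alone, and 14 of the 30 had 0 counts in the depleted group. Marco (0 against 33 counts) and Timd4 (2 against 0 counts) had too few counts to test. In bulk RNA, fewer cells of a type and less RNA per cell cannot be told apart. Complement C1q, a secreted product typical of tissue macrophages, shows the scale: C1qa stood at 0, 0 and 0 CPM after depletion and 915, 906 and 786 CPM without it, at least 25449.8-fold lower, and C1qb at 0, 0 and 0 CPM after depletion and 903, 873 and 718 CPM without it, at least 24389-fold lower. Among called genes that reached 20 CPM without depletion and whose groups did not overlap, 12 had the largest falls. They were Ptprc, Adgre1, the 3 C1q chains C1qa, C1qb and C1qc, the scavenger receptor Msr1, the adaptor Tyrobp, Fcrls, Ms4a7, Cd84, Clec12a and Rgs1. No library without depletion held any of them below 124 CPM, and each had at most 2 counts over the 3 depleted libraries. Csf1r, the receptor for the macrophage growth factor, stood at 1.44, 1.33 and 1.91 CPM after depletion and 1001, 886 and 907 CPM without it (log2 fold change -9.22 ± 0.27, adjusted p = 4.11e-05). Here, in contrast to Ptprc, a low level was left in each depleted library. The lysosomal marker Cd68 likewise kept 2.18, 2.07 and 2.34 CPM, from 452, 498 and 378 CPM (adjusted p = 4.11e-05). Lyz2, the macrophage lysozyme, was among the most counted genes of the nondepleted libraries at 4423, 5701 and 5733 CPM and kept 15.3, 58.2 and 6.67 CPM after depletion (log2 fold change -7.63 ± 1.03, adjusted p = 0.00579). Its 3 depleted libraries differed 8.73-fold among themselves, with depleted 2 highest and depleted 3 lowest. Mertk, a receptor for the clearance of dead cells, and Gpnmb, a glycoprotein of macrophages and bone cells, kept the most beside Lyz2: Mertk 2.46, 7.92 and 6.71 of 40.1, 43.6 and 39.7 CPM and Gpnmb 7.84, 12.8 and 6.98 of 132, 167 and 172 CPM. In the list of 18 leukocyte genes 16 fell (88.9%, beside 14.2% of all genes). Of the 18, 15 passed the filter in the nondepleted libraries alone, and of the 3 that passed in both groups 1 fell. Lcp1, the leukocyte plastin, went from 865, 847 and 646 to 0.0307, 0.034 and 0.039 CPM, and Laptm5 from 632, 692 and 568 to 0.123, 0.17 and 0 CPM. Both exceptions also lay lower in every depleted library: Lsp1 stood at 92.1, 58.6 and 26.8 against 126, 163 and 144 CPM (adjusted p = 0.0808) and Arhgdib at 6.49, 44.6 and 71.8 against 128, 116 and 129 CPM (adjusted p = 0.179). Lsp1 was called lower without depleted 1 (adjusted p = 0.0374) and Arhgdib likewise without depleted 1 (adjusted p = 0.0344), so that all 18 were called in that fit.

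**Figure D2:**
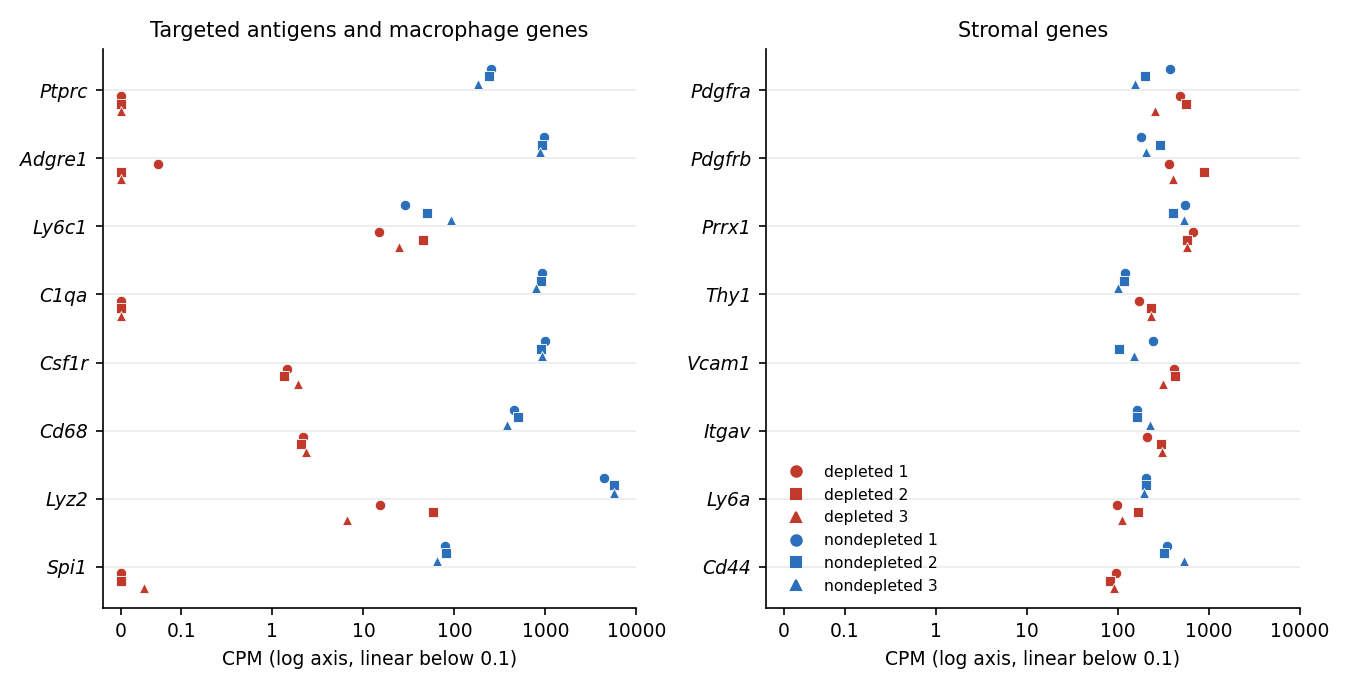
CPM of 8 genes of targeted antigens and macrophages (left) and 8 stromal genes (right) in each of the 6 libraries, on a log axis that is linear below 0.1, one symbol per library. Ptprc and C1qa are at 0 in all depleted libraries and at 182 CPM or more in all nondepleted ones, whereas the lowest value among the 8 stromal genes is 81.4 CPM, of Cd44 in depleted 2.

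Transcription factors of myeloid cells fell into those that vanished and those that stayed. Of 17 tested, 8 were lower and 1 was higher, beside 14.2% and 10.1% of all genes. Of the 17, 5 passed the filter in the nondepleted libraries alone, and of the 12 that passed in both groups 3 were lower. Spi1, which encodes PU.1, the master factor of the myeloid lineage, stood at 0, 0 and 0.039 CPM after depletion and 78.5, 81.5 and 63.6 CPM without it (adjusted p = 9.62e-05). Ikzf1, the lymphoid and myeloid factor Ikaros, was at 0, 0 and 0 against 39.9, 39.1 and 31.3 CPM, at least 1078-fold lower, and Irf8, a factor of monocytes and dendritic cells, at 0.0922, 0.17 and 0.117 against 33.0, 36.7 and 31.5 CPM (adjusted p = 4.22e-05). Others are also used by mesenchymal cells and overlapped between groups, among them Runx1 (149, 579.9 and 277 against 239.7, 179.8 and 193 CPM) and Zeb2 (149, 507 and 159 against 288, 243 and 249.95 CPM). Zeb2 was called lower without depleted 2 (adjusted p = 0.024). Nr1h3, which encodes the sterol receptor LXR-alpha, was the member that rose, from 5.42, 5.74 and 4.67 to 9.56, 10.2 and 10.5 CPM (log2 fold change 0.93 ± 0.16, adjusted p = 0.0112). The call of Nr1h3 was lost without nondepleted 1 or 2 (adjusted p = 0.055 and 0.0523).

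Other blood lineages were sparse before depletion. Among 9 tested genes of dendritic cells and MHC class II, 4 fell, beside 14.2% of all genes. Of the 9, 5 passed the filter in the nondepleted libraries alone, and of the 4 that passed in both groups 1 was lower. Cd74, the invariant chain, went from 21.3, 14.4 and 46.0 to 0.123, 0.578 and 0.624 CPM (adjusted p = 0.00487) and H2-Aa from 3.62, 4.92 and 13.3 to 0, 0 and 0.156 CPM (adjusted p = 0.0119). H2-Ab1, in contrast, stood at 14.5, 33.2 and 34.5 against 41.0, 40.9 and 91.8 CPM and did not pass (adjusted p = 0.146). Of 17 neutrophil and mast cell genes only Csf3r, the receptor for G-CSF, could be tested, and it fell from 6.87, 7.51 and 6.27 to 0, 0.034 and 0 CPM (adjusted p = 0.000612). S100a9, Mpo and Ngp had 0 counts in all 6 libraries. Of 17 lymphocyte and NK cell genes only Il7r could be tested, at 0, 0 and 0 against 1.04, 2.83 and 1.99 CPM (adjusted p = 0.00933), and Cd3e, Cd3d and Cd8a had 0 counts. The platelet chemokine Pf4, which macrophages also make, fell from 125, 100.2 and 78.9 to 0.0922, 0.034 and 0.039 CPM (adjusted p = 7.23e-05), while haemoglobin Hba-a1 had 1 count in all. Among osteoclast genes, Tnfrsf11a, which encodes the receptor RANK on osteoclast precursors, was at 0, 0 and 0 against 47.2, 44.8 and 45.4 CPM, at least 1338-fold lower. Ctsk, the collagen-degrading protease of mature osteoclasts that fibroblasts also make, stood at 69.2, 65.6 and 55.0 against 48.6, 33.3 and 51.0 CPM and did not pass (adjusted p = 0.103).

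Many cytokine genes and sensors of inflammation fell too. Of 23 tested cytokine and chemokine genes 14 were lower (60.9%, beside 14.2% of all genes) and 0 higher. Of the 23, 11 passed the filter in the nondepleted libraries alone. Of the 12 that passed in both groups 5 were lower (41.7%, against 11.7% of all genes that did so). Tnf stood at 0.0307, 0 and 0 against 58.4, 92.3 and 81.7 CPM (adjusted p = 0.000101), Il10 at 0, 0 and 0 against 10.2, 9.7 and 5.61 CPM (adjusted p = 0.0024) and the macrophage inflammatory protein gene Ccl3 at 0, 0 and 0.039 against 116, 139 and 124 CPM (adjusted p = 7.5e-05). Genes that stromal cells can make as well fell in part: Ccl2, which attracts monocytes, kept 4.33, 7.07 and 14.9 of 458, 441 and 317 CPM (log2 fold change -5.53 ± 0.55, adjusted p = 0.00205) and Ccl7 kept 4.61, 10.2 and 19.5 of 376, 389 and 301 CPM (adjusted p = 0.00361). Ptgs2, which encodes the prostaglandin enzyme COX-2, kept 9.74, 41.5 and 70.2 of 339.9, 564 and 304 CPM (log2 fold change -3.31 ± 0.74, adjusted p = 0.0266), with depleted 3 the highest and depleted 1 the lowest. The call of Ptgs2 was lost without depleted 2 or nondepleted 1, 2 or 3 (adjusted p = 0.0659, 0.0698, 0.0856 and 0.0582). Il6 overlapped between groups, at 0.184, 36.7 and 0.741 CPM in the depleted libraries, high in depleted 2 alone, and 6.55, 17.4 and 1.77 CPM in the nondepleted ones. Of 20 Toll-like receptor genes and their adaptors 11 were lower (55%, beside 14.2% of all genes). Of the 20, 14 passed the filter in both groups, and 6 of these were lower (42.9%, against 11.7%). The endosomal receptors Tlr7 (0.0307, 0.068 and 0 against 105, 108 and 94.6 CPM) and Tlr13 (0, 0.034 and 0 against 162, 175 and 164 CPM) were nearly gone, whereas Tlr4 (adjusted p = 0.366), Tlr3 (24.9, 34.7 and 30.1 against 24.2, 26.4 and 20.5 CPM) and the adaptor Myd88 (25.9, 43.7 and 38.4 against 45.3, 44.8 and 25.3 CPM) did not pass. Interferon-induced genes were lower for 7 of 23 tested, but 6 of the 23 passed the filter in the nondepleted libraries alone. Of the 16 that passed in both groups 1 was lower (6.25%), against 11.7% of all genes that did so. The sum of the list in nondepleted 3 (1414, 894 and 527 CPM) lay within the range of the depleted libraries (606, 575 and 491 CPM). Oas3, a sensor of viral RNA, went from 42.3, 28.2 and 18.9 to 0.0307, 0.034 and 0.078 CPM (adjusted p = 0.00024), and Bst2, which tethers budding virus, from 137, 98.2 and 60.1 to 21.8, 24.4 and 29.3 CPM (adjusted p = 0.01). Ifit1 overlapped between groups, at 27.1, 34.7 and 46.7 against 96.5, 56.5 and 15.2 CPM (adjusted p = 0.489).

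Lysosomal genes, which every cell uses and macrophages use heavily, fell by smaller amounts. Of 28 tested 18 were lower, beside 14.2% of all genes, and 1 higher, and 25 of the 28 passed the filter in both groups. The count of falls was 16, 17 and 18 without depleted 1, 2 and 3 in turn and 11, 10 and 15 without nondepleted 1, 2 and 3. The cathepsins show both kinds of change. Ctss, the cathepsin of antigen-presenting cells, went from 541, 514 and 486 to 0, 0 and 0.039 CPM (adjusted p = 7.23e-05), while Ctsb went from 4442, 4623 and 3436 to 994, 824 and 881 CPM (log2 fold change -2.21 ± 0.25, adjusted p = 0.00289) and Ctsd from 980.2, 1253 and 1184 to 479.8, 502 and 524 CPM (log2 fold change -1.18 ± 0.18, adjusted p = 0.00811). Legumain (Lgmn), an asparagine-specific protease, fell from 831, 845 and 646 to 116, 111 and 171 CPM (log2 fold change -2.55 ± 0.25, adjusted p = 0.00168). Hgsnat, the acetyltransferase of heparan sulfate breakdown, fell from 601, 612 and 597 to 82.6, 121 and 89.4 CPM (log2 fold change -2.63 ± 0.20, adjusted p = 0.000604). Gaa, the glucosidase that degrades lysosomal glycogen, was the exception and rose from 293, 309.8 and 267 to 671, 518 and 656 CPM (log2 fold change 1.08 ± 0.17, adjusted p = 0.00918). The call of Gaa was lost without nondepleted 1 or 2 (adjusted p = 0.0526 and 0.0503).

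Several genes fell steeply yet kept at least 20 CPM on average after depletion. Sirpa, which encodes the receptor for the don't-eat-me signal CD47, kept 82.5, 62.8 and 94.0 of 857, 838 and 735 CPM (log2 fold change -3.34 ± 0.22, adjusted p = 0.000369). Fxyd5, which encodes the adhesion-modulating protein dysadherin, kept 27.1, 14.9 and 23.7 of 183, 219 and 176 CPM (log2 fold change -3.14 ± 0.26, adjusted p = 0.000932). Gcnt1, an enzyme that branches O-linked sugars, kept 32.2, 9.82 and 23.8 of 124, 125 and 139 CPM (log2 fold change -2.56 ± 0.43, adjusted p = 0.0114). The depleted libraries were within 3.28-fold of each other for these genes. Of the same 12 genes, Hgsnat and Lgmn, described above, and Ly6e were as even and kept their call whichever library was left out. The following lost their call with fewer libraries, among them Il4ra, although its depleted libraries were within 3.19-fold of each other. Car9, the hypoxia-induced carbonic anhydrase, kept 74.0, 6.49 and 29.3 of 895, 606 and 448 CPM (adjusted p = 0.0257), Il1rl1, the IL-33 receptor, 23.8, 7.44 and 46.4 of 183, 428 and 365 CPM (adjusted p = 0.0197), Cndp2, a cytosolic dipeptidase, 12.2, 41.0 and 10.6 of 181, 184 and 138 CPM (adjusted p = 0.0181), and Il4ra, the shared receptor chain for IL-4 and IL-13, 22.9, 73.1 and 27.9 of 292, 265 and 194 CPM (adjusted p = 0.017). The call of Car9 was lost without depleted 3 or nondepleted 1, 2 or 3 (adjusted p = 0.07, 0.0753, 0.0747 and 0.056). Il1rl1 lost it without depleted 1 or nondepleted 2 or 3 (adjusted p = 0.0617, 0.0666 and 0.0565). Cndp2 lost its call without nondepleted 1 or 2 (adjusted p = 0.06 and 0.0635). Il4ra lost it without nondepleted 1 or 2 (adjusted p = 0.0591 and 0.0611).

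Cell division genes fell as a group. Mitosis genes have a known promoter layout, in which an element reading TTTGAA, the cell cycle genes homology region (CHR), lies near the transcription start and CCAAT boxes lie upstream of it, and their repression in resting cells acts through it. To show this layout beside the data, 140 bases of the promoters of 3 genes that fell are given from RefSeq (build GRCm38.p6, which is not the GRCm39 build of the counts), from 110 bases before the annotated start to 30 bases after it, 5′ to 3′ on the gene's strand. Capitals mark the CCAAT box, read on either strand, and the TTTGAA element. In Bub1 they also mark a variant of that element, TTCGAA.
Bub1, chr2:127831830-127831969, minus strand: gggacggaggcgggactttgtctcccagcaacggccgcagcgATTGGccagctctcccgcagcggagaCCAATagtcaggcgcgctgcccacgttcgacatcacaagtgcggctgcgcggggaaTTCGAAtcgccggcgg
Ccnb2, chr9:70421525-70421664, minus strand: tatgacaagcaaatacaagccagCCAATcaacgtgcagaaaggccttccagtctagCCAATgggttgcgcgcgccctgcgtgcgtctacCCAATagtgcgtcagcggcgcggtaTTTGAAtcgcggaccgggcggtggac
Cdc20, chr4:118437314-118437453, minus strand: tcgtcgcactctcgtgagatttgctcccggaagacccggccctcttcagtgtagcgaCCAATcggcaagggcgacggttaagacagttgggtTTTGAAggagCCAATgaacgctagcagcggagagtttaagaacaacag
TTCGAA begins 15 bases into the transcript of Bub1, TTTGAA begins at base 5 of Ccnb2, and in Cdc20 it begins 18 bases before the start, with CCAAT on both sides.

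RefSeq promoters (250 bases before to 50 after the start) were found for 25 of the 30 mitosis genes, 26 promoters in all. TTTGAA, read on both strands, was in 19 of the 26 (73.1%) and in 17.9% of all 32851 promoters in the table. TTCGAA was in 3 of the 26 (11.5%) and in 1.56% of all, and CCAAT in 19 of the 26 (73.1%) and in 37.4% of all. The other sets searched also held TTCGAA above 1.56%, on 1 or 2 promoters each. Its share was 7.14% for DNA replication, 5.56% for leukocyte, 4.76% for immediate-early, 4.35% for cartilage and 4% for macrophage promoters. Of the 28 promoters found for 23 of 29 DNA replication genes, 3 (10.7%) held TTTGAA and 16 (57.1%) held CCAAT. For comparison, the string GAGGAA was in 34.6% of the mitosis promoters and 28.3% of all, and the longer GAGGAAGT, which overlaps it, in 3.85% and 3.2%. The AP-1 site TGACTCA was in 0% and 5.2%, and the TATA box string TATAAA in 3.85% and 13.6%. Macrophage gene promoters, 25 for 23 of 30 genes, held TTTGAA in 20%, CCAAT in 28% and GAGGAA, the core of the PU.1 site, in 52%. The longer GAGGAAGT was in 4% of them, close to the 3.2% of all. GAGGAA was also in 44.4% of leukocyte and 38.1% of immediate-early promoters, and in 21.7% of cartilage and 17.9% of DNA replication promoters. These matches were looked up after the expression values were known and are descriptions with no test.

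Of the 30 mitosis genes 28 were lower after depletion and 0 higher, beside 14.2% lower over all genes, and all 30 had passed the filter in all libraries of both groups. In each of the 30 the 3 depleted libraries lay below the 3 nondepleted ones, as for 25.3% of all genes, and the median log2 fold change was -2.60. The list summed to 69.3, 239 and 99.8 CPM in the depleted libraries and 875, 699.7 and 757 CPM in the nondepleted ones, so depleted 2 kept the most and depleted 1 the least. Bub1, a kinase of the spindle checkpoint, stood at 0.707, 3.2 and 1.29 CPM against 19.3, 16.9 and 17.7 CPM (log2 fold change -3.37 ± 0.56, adjusted p = 0.0111). Ccnb2, a mitotic cyclin, stood at 0.768, 4.32 and 1.21 against 22.7, 17.7 and 17.4 CPM (log2 fold change -3.20 ± 0.67, adjusted p = 0.0225). Cdc20, the activator of the anaphase-promoting complex, stood at 2.03, 5.51 and 2.15 against 12.7, 10.5 and 11.2 CPM (log2 fold change -1.82 ± 0.43, adjusted p = 0.0309). In all 3 genes depleted 2 was the highest of its group and still below every nondepleted library. Birc5, which encodes survivin, had the largest fitted fall of the list (-3.42 ± 0.62, adjusted p = 0.0147), and the proliferation marker Mki67 stood at 4.09, 23.0 and 6.28 against 121, 98.5 and 98.6 CPM (adjusted p = 0.0227). Neither cyclin B1 (Ccnb1, 0.523, 4.66 and 1.25 against 11.4, 9.22 and 11.5 CPM, adjusted p = 0.0787) nor the spindle midzone protein Prc1 (3.44, 15.1 and 4.06 against 29.7, 24.5 and 32.4 CPM, adjusted p = 0.0661) passed. Ccnb1 was called lower without depleted 2 (adjusted p = 0.00734), and Prc1 without depleted 2 (adjusted p = 0.00115). The number of falls among the 30 varied with the library left out: it was 22, 30 and 17 without depleted 1, 2 and 3 in turn and 9, 9 and 13 without nondepleted 1, 2 and 3. Bub1 kept its call in each of these 6 fits. Ccnb2 lost it without depleted 3 or nondepleted 1, 2 or 3 (adjusted p = 0.0539, 0.0731, 0.0704 and 0.0572). Cdc20 lost it without depleted 1 or 3 or nondepleted 1, 2 or 3 (adjusted p = 0.0662, 0.0652, 0.0974, 0.0891 and 0.0782), Birc5 without nondepleted 1 or 2 (adjusted p = 0.0546 and 0.0502). Mki67 lost it without depleted 3 or nondepleted 1, 2 or 3 (adjusted p = 0.0541, 0.0707, 0.069 and 0.0573).

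Genes of DNA replication fell less far. Of 29 tested 22 were lower and 0 higher, beside 14.2% lower over all genes, with a median log2 fold change of -1.37, and 27 of the 29 had passed the filter in both groups. The list summed to 294, 418 and 273 CPM after depletion and 904, 731 and 690.0 CPM without it. The helicase subunit Mcm5 stood at 2.18, 6.8 and 2.34 against 49.9, 36.3 and 28.9 CPM (log2 fold change -3.34 ± 0.53, adjusted p = 0.00975), but Mcm4, another subunit of the same ring, stood at 51.9, 57.2 and 34.6 against 70.8, 52.5 and 49.4 CPM and did not pass (adjusted p = 0.44). The sliding clamp Pcna went from 81.7, 73.0 and 66.2 to 19.9, 29.9 and 30.3 CPM (log2 fold change -1.46 ± 0.20, adjusted p = 0.00529). Both subunits of ribonucleotide reductase overlapped between groups, Rrm1 at 37.3, 91.9 and 38.9 against 109.6, 85.4 and 95.1 CPM and Rrm2 at 10.8, 35.7 and 17.4 against 31.3, 29.1 and 39.0 CPM, with depleted 2 high for each. Rrm1 was called lower without depleted 2 (adjusted p = 0.00503), and Rrm2 without depleted 2 (adjusted p = 0.0321). The number of falls was 22, 24 and 21 without depleted 1, 2 and 3 in turn and 14, 14 and 18 without nondepleted 1, 2 and 3. Among 19 inhibitors of the cell cycle and targets of p53, 5 rose (26.3%, beside 10.1% of all genes) and 1 fell (5.26%, beside 14.2%). Cdkn1b, which encodes the cyclin-dependent kinase inhibitor p27, rose from 57.6, 58.8 and 67.5 to 107, 102 and 95.7 CPM (log2 fold change 0.73 ± 0.11, adjusted p = 0.00747), and Phlda3, a p53 target that restrains Akt, from 55.9, 46.3 and 47.1 to 161, 114 and 102 CPM (log2 fold change 1.34 ± 0.20, adjusted p = 0.00762). Cdkn1b lost its call without nondepleted 2 (adjusted p = 0.0505), and the 5 rises became 6, 4 and 5 without depleted 1, 2 and 3 in turn and 4, 1 and 3 without nondepleted 1, 2 and 3. Cdkn1a, which encodes p21, stood at 208, 228 and 198 against 166, 201 and 145 CPM and did not pass (adjusted p = 0.205). Macrophage genes are near 0 in the same libraries in which division genes are low, and the part of dividing macrophages in the fall was not tested.

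**Figure D3:**
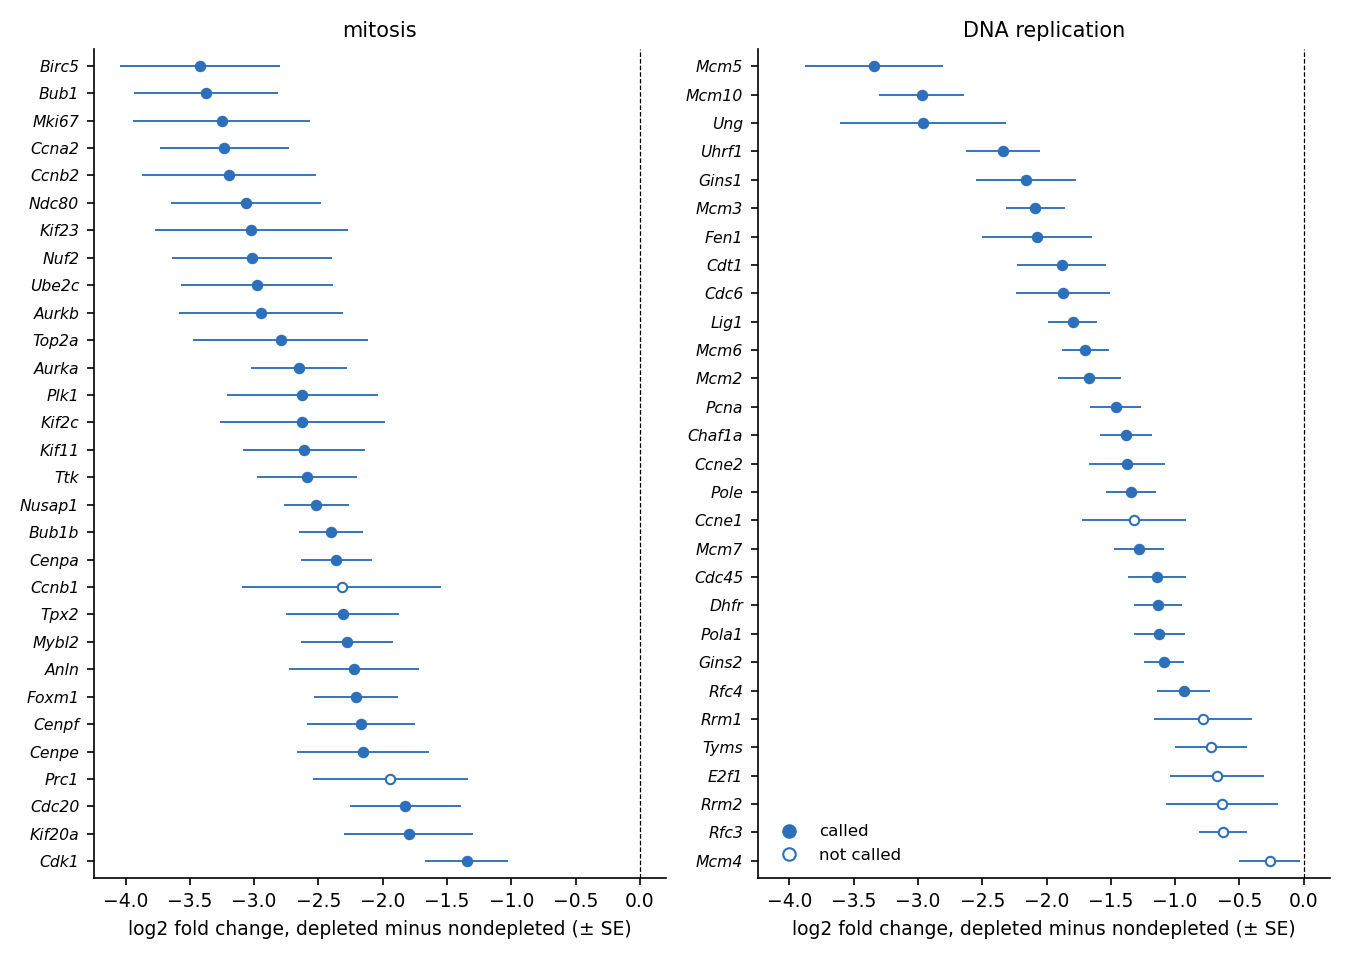
Log2 fold change (depleted minus nondepleted, with SE bars) of the 30 mitosis genes (left) and the 29 DNA replication genes (right), filled where the gene was called. All 59 estimates lie below 0, with 28 mitosis genes and 22 replication genes called, and the mitosis genes extend further to the left.

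Niche factors rose in part, and unevenly. Of 18 tested genes for factors that stromal cells supply to blood-forming cells, 4 were higher and 0 lower, beside 10.1% higher over all genes. Cxcl12, the chemokine that holds blood stem cells in the niche, stood at 8804, 15895 and 3085 CPM after depletion and 884, 1074 and 824 CPM without it (log2 fold change 3.32 ± 0.64, adjusted p = 0.0168). Each depleted library lay above each nondepleted one, but the depleted libraries spanned 5.15-fold, with depleted 2 highest and depleted 3 lowest. Il34, an alternative ligand of the Csf1 receptor, rose from 5.77, 14.6 and 15.3 to 69.0, 275 and 169 CPM (log2 fold change 3.84 ± 0.65, adjusted p = 0.0116). Esm1, which encodes the proteoglycan endocan, rose from 12.7, 17.9 and 14.6 to 276, 176 and 245 CPM (log2 fold change 3.94 ± 0.24, adjusted p = 0.000296), and Vcam1, the adhesion molecule for leukocytes, from 243, 102 and 151 to 414, 422 and 312 CPM (log2 fold change 1.21 ± 0.34, adjusted p = 0.0494). The main ligand Csf1 overlapped between groups at 1064, 1505 and 2585 against 839.9, 1072 and 1372 CPM (adjusted p = 0.262), and stem cell factor (Kitl) stood at 146, 198 and 329 against 105, 118 and 86.9 CPM, separate but short of the threshold (adjusted p = 0.0524). Kitl was called higher without depleted 1 (adjusted p = 0.0289). Lepr, the leptin receptor that marks marrow niche cells, was low and scattered, at 23.4, 1.94 and 0.624 against 57.5, 4.27 and 39.2 CPM (adjusted p = 0.365). The number of rises was 6, 3 and 3 without depleted 1, 2 and 3 in turn and 3, 2 and 2 without nondepleted 1, 2 and 3. Cxcl12 lost its call without nondepleted 1, 2 or 3 (adjusted p = 0.0751, 0.0736 and 0.069). Il34 lost it without nondepleted 2 (adjusted p = 0.0518) and Vcam1 without depleted 1, 2 or 3 or nondepleted 2 or 3 (adjusted p = 0.106, 0.0978, 0.0682, 0.119 and 0.151).

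Cartilage genes rose in part, with 9 of 18 tested higher (beside 10.1% of all genes), 0 lower and a median log2 fold change of 2.60. Cartilage matrix consists of a network of type II, IX and XI collagens that holds the proteoglycan aggrecan, made under control of Sox9 with Sox5 and Sox6. Sox9 rose from 89.9, 73.5 and 90.4 to 249.8, 192 and 302 CPM (log2 fold change 1.55 ± 0.20, adjusted p = 0.00488) and Sox5 from 9.14, 13.3 and 8.04 to 22.7, 27.8 and 46.8 CPM (adjusted p = 0.0199). All 3 chains of type IX collagen rose: Col9a1 went from 0.063, 0.478 and 0.326 to 14.7, 51.9 and 48.0 CPM (log2 fold change 7.04 ± 0.84, adjusted p = 0.00382), Col9a3 from 0.41, 1.23 and 1.96 to 27.8, 49.9 and 134 CPM (log2 fold change 5.88 ± 0.89, adjusted p = 0.00818) and Col9a2 from 0.819, 1.37 and 5.21 to 12.9, 39.3 and 13.7 CPM (adjusted p = 0.0464). Of type XI collagen, Col11a2 rose from 2.14, 6.01 and 16.5 to 95.0, 96.8 and 337 CPM (log2 fold change 4.42 ± 0.97, adjusted p = 0.0249). The main collagen of cartilage, Col2a1, did not pass (adjusted p = 0.176). Its levels were 1595, 3475 and 19448 CPM after depletion, with depleted 3 far above the others, and 103, 737 and 2354 CPM without it, where nondepleted 3 exceeded depleted 1. Aggrecan (Acan) lay higher in every depleted library, at 121, 291 and 683 against 0.599, 3.93 and 31.2 CPM, and did not pass either (adjusted p = 0.0666), though it was called without nondepleted 3 (adjusted p = 0.0366). Comp, the cartilage oligomeric matrix protein that tendon also makes, rose from 1042, 2665 and 1852 to 8183, 4241 and 7287 CPM (log2 fold change 1.83 ± 0.46, adjusted p = 0.0371), and Cytl1, a secreted chondrocyte protein, from 0.221, 0.444 and 0.0362 to 11.3, 0.578 and 46.7 CPM (adjusted p = 0.0463). Col10a1, of hypertrophic cartilage, overlapped at 9.68, 3.43 and 1.64 against 2.39, 4.44 and 44.0 CPM. In sum the list stood at 13251, 10380.3 and 42637 CPM in the depleted and 2289, 4333 and 6629 CPM in the nondepleted libraries, the highest value in library 3 of both groups. The number of rises was 6, 8 and 8 without depleted 1, 2 and 3 in turn and 4, 5 and 8 without nondepleted 1, 2 and 3. Col9a2 lost its call without depleted 1, 2 or 3 or nondepleted 1 or 2 (adjusted p = 0.0643, 0.0901, 0.0628, 0.115 and 0.147). Col11a2 lost it without nondepleted 1 or 2 (adjusted p = 0.0611 and 0.102) and Sox5 without nondepleted 1 or 3 (adjusted p = 0.0817 and 0.072). Comp lost it without depleted 1 or 3 or nondepleted 1, 2 or 3 (adjusted p = 0.0751, 0.0732, 0.108, 0.0719 and 0.115). Cytl1 lost it without depleted 1 or 3 or nondepleted 1, 2 or 3 (adjusted p = 0.0738, 0.0822, 0.143, 0.124 and 0.13).

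The largest rises were in genes that the nondepleted libraries hardly held. Scg2, which encodes the secretory granule protein secretogranin II, stood at 122, 125 and 39.5 CPM after depletion and 0.0315, 0.0683 and 0.181 CPM without it (log2 fold change 9.97 ± 0.80, adjusted p = 0.000914). Car3, a carbonic anhydrase of fat and muscle, stood at 321, 29.5 and 107 against 0.063, 0.546 and 0.0362 CPM (log2 fold change 9.45 ± 1.42, adjusted p = 0.00821). Gdf10, a member of the BMP family also named BMP3b, stood at 151, 304 and 50.7 against 0.315, 0.615 and 0.217 CPM (log2 fold change 8.77 ± 0.93, adjusted p = 0.00262). The largest rises were chosen among genes with every depleted library above every nondepleted one, so that separation is no result. At the nearest pair of libraries the ratio was 218 for Scg2, 54.0 for Car3 and 82.5 for Gdf10. Negr1, a neural adhesion molecule, was the most even of the group at 28.7, 28.5 and 29.3 against 0.473, 0.273 and 0.507 CPM (log2 fold change 6.10 ± 0.25, adjusted p = 9.67e-05). Fzd9, a Wnt receptor of osteoblasts, stood at 53.6, 52.7 and 60.4 against 0.63, 1.6 and 1.16 CPM (log2 fold change 5.62 ± 0.36, adjusted p = 0.000384), and Crispld1, a secreted cysteine-rich protein, at 154, 47.6 and 82.9 against 0.725, 3.14 and 2.1 CPM (log2 fold change 5.58 ± 0.73, adjusted p = 0.00537). Others were carried mostly by 1 library. Rasgrf1, an activator of Ras, stood at 94.4, 1.33 and 2.85 against 0.0945, 0.0341 and 0 CPM, nearly all of it in depleted 1, and its log2 fold change of 9.39 became 5.42 without that library. Myoc, which encodes myocilin, stood at 55.9, 9.11 and 4.92 against 0.0315, 0.205 and 0.0724 CPM (log2 fold change 7.78 ± 1.38), and Kif26b, a kinesin family protein of mesenchyme, at 13.1, 119 and 9.79 against 0.693, 0.956 and 0.905 CPM (log2 fold change 5.80 ± 1.22). Rasgrf1 lost its call without nondepleted 1, 2 or 3 (adjusted p = 0.123, 0.137 and 0.125). Myoc lost it without nondepleted 1, 2 or 3 (adjusted p = 0.0601, 0.0522 and 0.0567) and Kif26b without nondepleted 1, 2 or 3 (adjusted p = 0.0886, 0.0896 and 0.0782).

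The depleted libraries resembled each other closely for some rises and differed widely for others. Among genes that rose at least 4-fold and reached 50 CPM, the 10 most even were within 1.63-fold of each other. Islr, which encodes the stromal surface protein meflin, stood at 1268, 1141 and 1251 CPM after depletion against 196, 201 and 92.0 CPM (log2 fold change 2.90 ± 0.35, adjusted p = 0.00362). The FGF receptor Fgfr3 stood at 86.9, 85.9 and 108 against 2.58, 4.98 and 10.9 CPM, Fgfr2 at 259, 366 and 413 against 50.7, 56.5 and 83.0 CPM and the ligand Fgf2 at 154, 182 and 137 against 16.3, 38.1 and 11.8 CPM. Zbtb20, a zinc finger repressor, stood at 446, 509 and 360.2 against 82.3, 73.2 and 97.1 CPM, the matrix gene Ecm2 at 129, 109 and 96.1 against 23.5, 15.4 and 16.8 CPM, the Wnt effector Daam2 at 62.3, 91.8 and 101 against 5.1, 13.0 and 9.56 CPM and the actin regulator Phactr1 at 63.5, 83.2 and 67.5 against 11.2, 11.6 and 18.4 CPM. Beside these, Fzd9 and Esm1 belong to the same 10. The most uneven was Col28a1, a collagen known from peripheral nerve, at 6.24, 1009 and 109 against 1.42, 1.71 and 3.62 CPM (log2 fold change 7.38 ± 1.95, adjusted p = 0.0429). Its highest library, depleted 2, exceeded its lowest, depleted 1, by 162-fold. Depleted 2 was also highest for the Wnt receptor Fzd4 (69.6, 458 and 40.1 CPM), the smooth muscle kinase Mylk (60.6, 156 and 21.0 CPM) and Plac9a, which has a near-identical copy and is uncertain for that reason (77.6, 533 and 81.1 CPM), while depleted 3 was highest for the protease inhibitor Serpina3n (37.3, 210.2 and 918 CPM) and the glial and chondrocyte protein S100b (15.9, 59.2 and 135 CPM). Depleted 1 was highest for Car3 and for the monoglyceride lipase Mgll (111, 21.2 and 83.0 CPM). No library was therefore high for all of the uneven genes. Calls among them were fragile: Col28a1 lost it without depleted 2 or 3 or nondepleted 1, 2 or 3 (adjusted p = 0.0548, 0.0557, 0.139, 0.145 and 0.113). Serpina3n lost it without depleted 2 or 3 or nondepleted 1, 2 or 3 (adjusted p = 0.0574, 0.059, 0.136, 0.113 and 0.128), Fzd4 without nondepleted 1, 2 or 3 (adjusted p = 0.133, 0.14 and 0.12). S100b lost it without depleted 2 or 3 or nondepleted 1, 2 or 3 (adjusted p = 0.0654, 0.0812, 0.0707, 0.109 and 0.116). Mylk lost it without depleted 1 or 2 or nondepleted 1, 2 or 3 (adjusted p = 0.0754, 0.0613, 0.121, 0.15 and 0.13). Plac9a lost it without nondepleted 1, 2 or 3 (adjusted p = 0.0836, 0.0867 and 0.0751), Mgll without nondepleted 1, 2 or 3 (adjusted p = 0.0628, 0.0729 and 0.0605). Fgf2 lost it without nondepleted 1 (adjusted p = 0.0512).

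**Figure D4:**
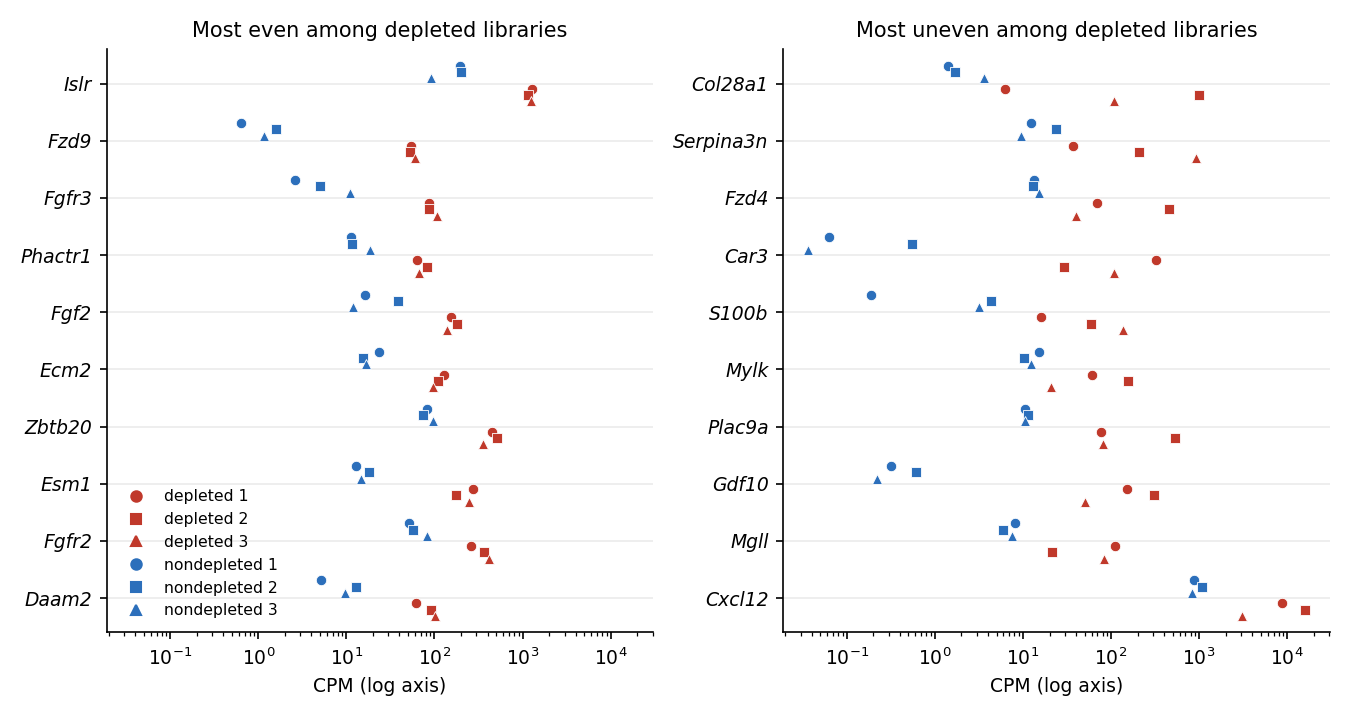
CPM (log axis) in each of the 6 libraries for the 10 most even (left) and 10 most uneven (right) of the genes that rose at least 4-fold and reached a mean of 50 CPM. On the left the 3 depleted symbols lie within 1.63-fold of each other for each gene, and on the right they spread up to 162-fold for Col28a1, with a different library highest from gene to gene.

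Among signalling pathways, the shares of genes called were mostly near those of all genes, which were 10.1% higher and 14.2% lower. In the Wnt pathway 4 of 29 tested genes rose (13.8%) and 0 fell. They were the co-receptor Lrp6 (809.5, 614 and 738 against 417, 321 and 290.4 CPM, log2 fold change 1.07 ± 0.21, adjusted p = 0.0178), the receptors Fzd4 and Fzd8 (315, 355 and 227 against 80.8, 147 and 102 CPM, adjusted p = 0.0176) and the secreted inhibitor Sfrp2 (659, 952 and 574 against 23.1, 70.7 and 127 CPM, log2 fold change 3.31 ± 0.65, adjusted p = 0.0182). Fzd9 and Daam2, described above, rose too but are not on the Wnt list, so the share leaves them out. Axin2, a common target of the pathway, was low at 3.38, 2.58 and 1.6 against 1.32, 1.3 and 0.688 CPM and did not pass (adjusted p = 0.0903). Sfrp1 stood at 202, 3612 and 44.6 CPM after depletion, high in depleted 2 alone, and 34.5, 52.4 and 117 CPM without it. Of 35 TGF-beta and BMP genes 5 rose (14.3%) and 2 fell (5.71%). Of the falls, the ligand Tgfb1, which macrophages make in quantity, went from 98.7, 92.5 and 81.2 to 14.0, 11.9 and 23.8 CPM (log2 fold change -2.46 ± 0.29, adjusted p = 0.00353) and the receptor Tgfbr2 from 505, 472 and 376 to 211, 196 and 262 CPM (log2 fold change -1.02 ± 0.19, adjusted p = 0.0154). The rises were Gdf10, Bmp6 (6.02, 46.6 and 16.5 against 2.21, 1.3 and 0.978 CPM), the receptor Bmpr2 (221, 276 and 215 against 158, 145 and 178 CPM), the inhibitory Smad6 (67.1, 125 and 77.3 against 25.8, 34.9 and 33.0 CPM) and follistatin, Fst (139, 327 and 447 against 75.1, 88.7 and 75.7 CPM). Among 30 genes of IGF, FGF, PDGF and VEGF signalling 6 rose (20%) and 1 fell (3.33%). Beside the FGF genes above, midkine (Mdk) rose from 22.3, 11.7 and 32.0 to 92.3, 130.4 and 75.8 CPM (adjusted p = 0.0164), Fgfr1 from 125, 116 and 130.1 to 177, 213 and 242 CPM (adjusted p = 0.017) and Igf2 from 0, 0.0683 and 0.0362 to 1.2, 18.8 and 1.37 CPM (adjusted p = 0.0288). Pdgfb, a ligand of platelets and macrophages, fell from 24.8, 30.6 and 29.7 to 0.154, 0.034 and 0.273 CPM (adjusted p = 0.000539), while its receptor Pdgfrb stood at 367, 879 and 401 against 179, 290.4 and 205 CPM (adjusted p = 0.0671). Left out in turn, single libraries moved these counts. Wnt rises numbered 5, 4 and 7 without depleted 1, 2 and 3 in turn and 2, 1 and 3 without nondepleted 1, 2 and 3. TGF-beta and BMP rises numbered 5, 3 and 5 without depleted 1, 2 and 3 in turn and 1, 3 and 5 without nondepleted 1, 2 and 3, and those of the IGF to VEGF list 7, 6 and 6 without depleted 1, 2 and 3 in turn and 3, 5 and 4 without nondepleted 1, 2 and 3. Fzd8 lost its call without nondepleted 1 or 3 (adjusted p = 0.0609 and 0.0679). Sfrp2 lost it without nondepleted 2 (adjusted p = 0.082), Fst without depleted 2 or nondepleted 1, 2 or 3 (adjusted p = 0.0538, 0.0962, 0.0891 and 0.0878). Bmp6 lost it without nondepleted 1, 2 or 3 (adjusted p = 0.0672, 0.0956 and 0.0815). Tgfbr2 lost it without nondepleted 1 or 2 (adjusted p = 0.0628 and 0.0681). Igf2 lost it without nondepleted 1, 2 or 3 (adjusted p = 0.1, 0.0967 and 0.0957). Lrp6 lost it without nondepleted 2 or 3 (adjusted p = 0.0923 and 0.0719). Bmpr2 lost it without depleted 1, 2 or 3 or nondepleted 1, 2 or 3 (adjusted p = 0.0619, 0.0796, 0.0609, 0.155, 0.183 and 0.0876) and Smad6 without nondepleted 1 or 2 (adjusted p = 0.0566 and 0.0507). Mdk lost it without nondepleted 1 (adjusted p = 0.0667). Fgfr1 lost it without nondepleted 1, 2 or 3 (adjusted p = 0.0751, 0.0915 and 0.06).

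Bone and matrix genes took the most counts, and few of them passed the test. Summed over the osteoblast list, levels were 24109.9, 15409 and 28386 CPM after depletion and 29279, 45629 and 54974 CPM without it, lower in every depleted library. A sum follows its most abundant genes, and the 18 tested genes of the list did not fall as a group. Their median log2 fold change was 0.42, with 2 called higher and 2 lower (11.1% each). The collagen list summed to 33110.2, 35952 and 47466 against 39098, 64396 and 84258 CPM, which overlapped. The genes with the most counts after depletion were Thbs1, Fn1, Col1a2, Ogn and Cxcl12, and without depletion Thbs1, Fn1, Col1a2, Col1a1 and Lox. Thbs1, which encodes the matrix protein thrombospondin 1, stood at 12717, 27853 and 94830.5 CPM against 9416, 26467 and 43010.2 CPM, groups that overlapped (adjusted p = 0.561). Of 22 fibrillar and network collagens 1 was lower and 1 higher (4.55% each, beside 14.2% lower and 10.1% higher over all genes). Col1a1, the first chain of bone collagen, fell from 9415, 16794 and 20893 to 5323, 3349 and 6053 CPM (log2 fold change -1.68 ± 0.45, adjusted p = 0.0433), whereas its partner chain Col1a2 stood at 10012, 6973 and 13936 against 11674, 17628 and 19579 CPM and did not pass (adjusted p = 0.284). The call of Col1a1 was lost without depleted 1, 2 or 3 or nondepleted 1, 2 or 3 (adjusted p = 0.079, 0.0931, 0.0598, 0.0616, 0.134 and 0.118). Of 32 proteoglycan and matricellular genes 2 rose (6.25%) and 1 fell (3.1%). Ccn3, a secreted regulator of growth, rose, at 364, 829 and 644 against 111, 47.1 and 102 CPM (log2 fold change 2.82 ± 0.46, adjusted p = 0.0104). Among 18 osteoblast genes Sp7, which encodes osterix, the factor of committed osteoblasts, rose from 0.126, 0.478 and 1.16 to 21.6, 44.6 and 4.96 CPM (log2 fold change 5.34 ± 1.12, adjusted p = 0.0218), while Runx2, which acts before it, stood at 61.9, 50.0 and 82.8 against 37.6, 51.3 and 51.9 CPM (adjusted p = 0.18). Alkaline phosphatase (Alpl) at 30.3, 53.1 and 20.8 against 3.97, 5.97 and 18.9 CPM and bone sialoprotein (Ibsp) at 701, 96.2 and 35.3 against 19.0, 4.68 and 36.7 CPM did not pass, though Alpl was called higher without nondepleted 3 (adjusted p = 0.0312). Osteopontin (Spp1), made by osteoblasts and macrophages alike, lay lower in every depleted library but spread widely there, at 3546, 401 and 194 against 3862, 5309 and 6536 CPM (adjusted p = 0.244). Its depleted 1 was close to the nondepleted libraries, and Spp1 was called lower without depleted 1 (adjusted p = 0.00993), with a log2 fold change of -4.14 in place of -1.92. Sp7 lost its call without nondepleted 1 or 2 (adjusted p = 0.0673 and 0.0942).

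Of 26 matrix proteases and inhibitors 5 rose (19.2%, beside 10.1% of all genes) and 4 fell (15.4%, beside 14.2%). The falls were Mmp12, the macrophage elastase, at 0, 0 and 0 against 8.57, 20.6 and 17.0 CPM (at least 443-fold lower), and 3 genes of the plasminogen system: urokinase Plau (58.8, 118 and 76.2 against 276, 324 and 255 CPM, adjusted p = 0.00977), its receptor Plaur (2.49, 3.6 and 10.9 against 47.5, 44.3 and 46.8 CPM, adjusted p = 0.0169) and tissue activator Plat (34.1, 16.1 and 68.3 against 149, 191 and 186 CPM, adjusted p = 0.0334). Serpine2, an inhibitor of these activators, rose from 279.6, 278 and 431 to 2099, 979.6 and 1915 CPM (log2 fold change 2.34 ± 0.38, adjusted p = 0.00954). Of 17 surface antigens used to define mesenchymal cells 3 fell (17.6%) and 2 rose (11.8%). Cd44, the hyaluronan receptor, went from 350.3, 323 and 535 to 96.2, 81.4 and 90.3 CPM (log2 fold change -2.17 ± 0.23, adjusted p = 0.00251), Itga5, a subunit of the fibronectin receptor, from 203, 229 and 344 to 65.4, 109 and 93.8 CPM (log2 fold change -1.53 ± 0.28, adjusted p = 0.0145) and Alcam from 48.3, 63.6 and 51.1 to 1.78, 0.272 and 0.156 CPM (adjusted p = 0.00743). Thy1, which encodes CD90, rose with Vcam1, from 121, 118 and 100.02 to 172, 229.5 and 231 CPM (log2 fold change 0.90 ± 0.17, adjusted p = 0.0143). Of 33 transcription factors of limb and skeletal mesenchyme 4 rose (12.1%, beside 10.1% of all genes) and 0 fell. They included Hoxa9 (52.9, 31.5 and 28.8 against 7.53, 18.9 and 12.2 CPM), Hoxa10 (88.4, 82.9 and 111 against 42.3, 44.9 and 66.6 CPM) and Msx1 (5.47, 6.76 and 3.9 against 0.914, 1.95 and 1.16 CPM). Plaur lost its call without nondepleted 1 or 2 (adjusted p = 0.0569 and 0.0581). Plat lost it without depleted 1 or nondepleted 1, 2 or 3 (adjusted p = 0.0895, 0.0797, 0.101 and 0.0865) and Serpine2 without nondepleted 1 or 2 (adjusted p = 0.0519 and 0.0546). Thy1 lost it without nondepleted 1, 2 or 3 (adjusted p = 0.0565, 0.0661 and 0.0599) and Hoxa10 without depleted 1 or 3 or nondepleted 1 or 2 (adjusted p = 0.0661, 0.0821, 0.116 and 0.131). Hoxa9 lost it without depleted 1, 2 or 3 or nondepleted 1 or 3 (adjusted p = 0.0898, 0.0609, 0.0549, 0.097 and 0.122) and Msx1 without nondepleted 1 or 3 (adjusted p = 0.0641 and 0.0669). The rises among transcription factors numbered 3, 3 and 4 without depleted 1, 2 and 3 in turn and 1, 2 and 2 without nondepleted 1, 2 and 3. Among proteases the rises numbered 3, 3 and 3 without depleted 1, 2 and 3 in turn and 0, 0 and 1 without nondepleted 1, 2 and 3 and the falls 4, 4 and 5 without depleted 1, 2 and 3 in turn and 2, 4 and 3 without nondepleted 1, 2 and 3.

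All 7 testable transcripts of the mitochondrial genome lay higher in every depleted library, as did 22.5% of all genes, and 6 of them passed, beside 10.1% of all genes, with a median log2 fold change of 0.94. mt-Nd2, a subunit of respiratory complex I, stood at 3371, 2678 and 2581 against 992, 1099 and 1220.2 CPM (log2 fold change 1.38 ± 0.23, adjusted p = 0.0107). Mitochondrial transcripts together took 2.62%, 2.05% and 1.82% of the counts in the depleted libraries and 1.15% to 1.29% in the nondepleted ones, a share that is also read as a sign of cell stress or RNA quality. Ribosomal protein genes took 1.19% to 1.32% against 1.698% to 2.47%. The part of RNA quality in the results was not tested. The 6 mitochondrial rises became 5, 3 and 4 without depleted 1, 2 and 3 in turn and 0, 0 and 2 without nondepleted 1, 2 and 3, and mt-Nd2 lost its call without nondepleted 1 or 2 (adjusted p = 0.0632 and 0.0674). Of 24 glycolysis and hypoxia genes 8 fell (33.3%, beside 14.2% of all genes) and 1 rose. The pyruvate kinase Pkm fell from 1403, 1596 and 1832 to 495, 663 and 734 CPM (log2 fold change -1.35 ± 0.24, adjusted p = 0.0123) and Pdk1, which holds pyruvate back from mitochondria, from 301, 327 and 368 to 121, 142 and 177 CPM (log2 fold change -1.18 ± 0.19, adjusted p = 0.00891). Ndrg1, although a hypoxia target, rose from 171, 160.5 and 183 to 355, 367 and 383 CPM (log2 fold change 1.10 ± 0.13, adjusted p = 0.00301), and Vegfa overlapped between groups at 203, 283 and 139 against 209.9, 237 and 211 CPM. Pkm lost its call without nondepleted 2 (adjusted p = 0.0563). The number of falls was 6, 6 and 6 without depleted 1, 2 and 3 in turn and 5, 2 and 3 without nondepleted 1, 2 and 3.

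Depleted 1 stood apart for immediate-early genes, which are induced within minutes by growth factors or stress, including the handling of cells. Their summed level was 1629, 12690.0 and 14975 CPM in the depleted libraries and 10469, 9030.4 and 7269 CPM in the nondepleted ones, so depleted 1 lay below and depleted 2 and 3 above all nondepleted libraries. Fos, the founding member, stood at 178, 2733 and 2914 against 2149.8, 1545 and 1308 CPM (adjusted p = 0.874) and Egr1 at 328, 2238 and 3044 against 1245, 1082 and 708 CPM (adjusted p = 0.425). Egr1 was called higher without depleted 1 (adjusted p = 0.042), with a log2 fold change of 1.39. Only Nr4a2, an orphan nuclear receptor, was called, lower at 20.7, 15.1 and 10.5 against 67.4, 39.0 and 47.7 CPM (adjusted p = 0.0149). That fall is 4.55% of the list, beside 14.2% of all genes. Without depleted 1, 5 of the 22 genes were called higher and 3 lower, beside 1254 higher and 1974 lower of the 14913 genes in that fit. Heat shock and unfolded protein genes had 3 rises among 25 (12%, beside 10.1% of all genes), and 7, 4 and 2 without depleted 1, 2 and 3 in turn and 0, 0 and 0 without nondepleted 1, 2 and 3. Enzymes of sterol and fatty acid synthesis had 1 fall among 24 (4.17%, beside 14.2% of all genes), Dhcr7 at 8.7, 18.2 and 10.4 against 23.4, 26.4 and 28.1 CPM (adjusted p = 0.0476). They had 13 falls without depleted 2, beside 2038 falls among the 15006 genes in that fit. Depleted 2 was the depleted library in which their sum was highest (1178, 2348 and 1097 CPM against 1883, 1791 and 2461 CPM). Dhcr7 lost its call without depleted 1 or 3 or nondepleted 1, 2 or 3 (adjusted p = 0.0862, 0.103, 0.104, 0.133 and 0.119).

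**Figure D5:**
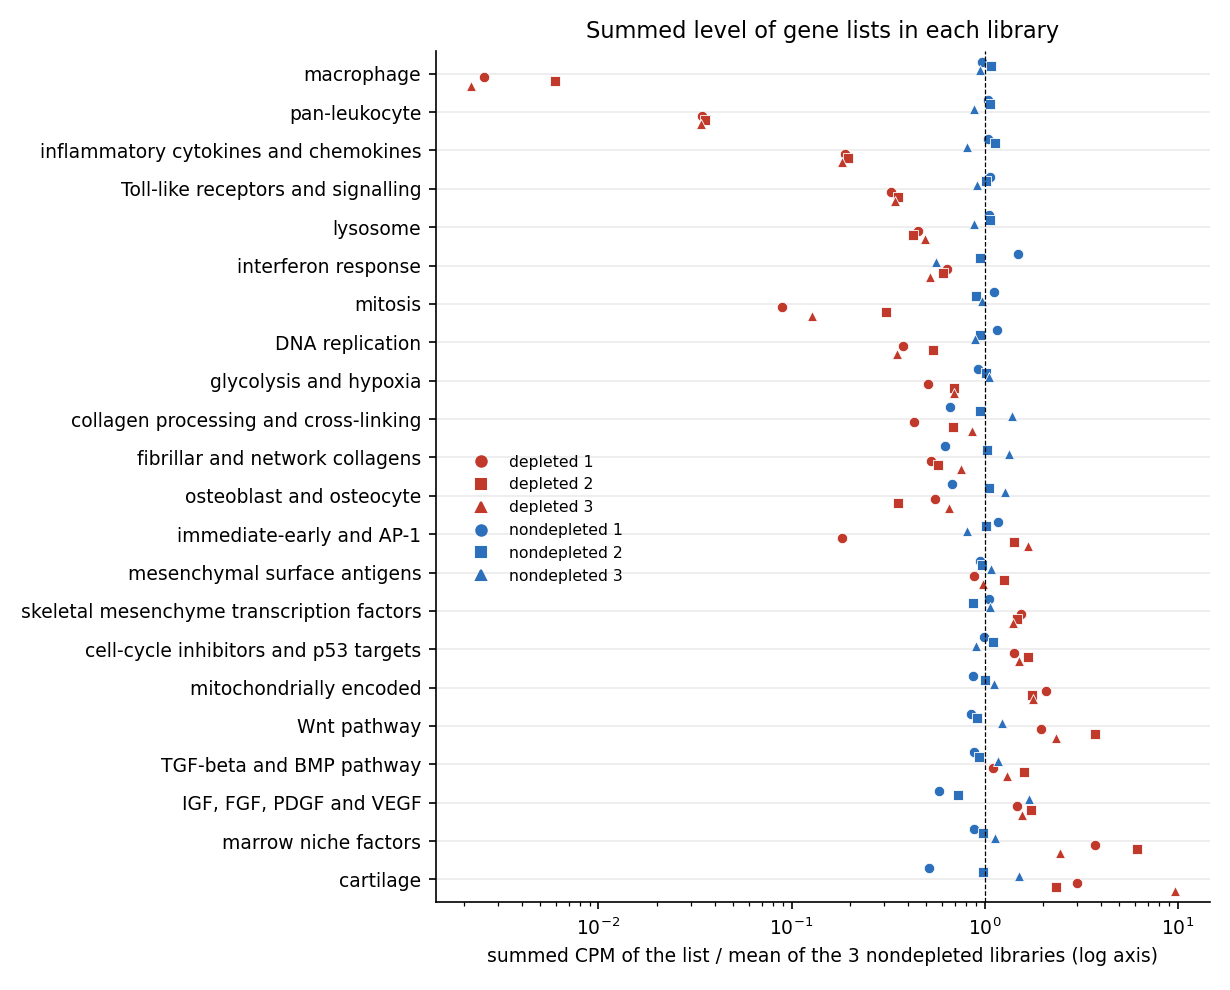
Summed CPM of 22 gene lists in each of the 6 libraries, divided by the mean of the 3 nondepleted libraries (log axis, dashed line at 1). Macrophage genes lie between 0.00219 and 0.00593 of the nondepleted mean and mitosis genes between 0.0891 and 0.308, cartilage and niche lists lie above 2 in every depleted library, and immediate-early genes split depleted 1 from depleted 2 and 3. Much of the niche sum in the depleted libraries (12529, 20618 and 8283 CPM) is Cxcl12 alone (8804, 15895 and 3085 CPM).

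Markers of other non-blood cell types were mixed. None of 13 pericyte and smooth muscle genes passed, with Acta2, the smooth muscle actin, at 297, 993 and 234 against 335, 739 and 839 CPM, although 2 rose without depleted 1, and 3 rose and 1 fell without depleted 3. The defining endothelial genes Pecam1 (33 against 6 counts) and Cdh5 (8 against 27 counts) were too low to test. Of the 6 endothelial genes tested 2 rose and 1 fell (33.3% and 16.7%, beside 10.1% and 14.2% of all genes). Of the rises, Egfl7 (log2 fold change 1.36, adjusted p = 0.0364) lost its call without depleted 2 or nondepleted 1, 2 or 3 (adjusted p = 0.0519, 0.113, 0.138 and 0.114). Kdr, the VEGF receptor, was lower (0.0615, 0.034 and 0 against 6.68, 7.41 and 3.62 CPM, adjusted p = 0.00168) and Erg, an endothelial and chondrocyte factor, higher (4.27, 3.91 and 46.5 against 1.01, 0.444 and 0.29 CPM, adjusted p = 0.0405), with nearly all of it in depleted 3. Fat cell genes were uneven after depletion, with a list sum of 922, 1139 and 265 CPM against 438, 461 and 439 CPM. Adiponectin (Adipoq) had 1634 counts in the depleted and 3 in the nondepleted libraries but too few in all but depleted 1 and 2 to be tested, and the fatty acid carrier Cd36, which macrophages share, stood at 17.2, 0.272 and 0 against 135, 101 and 85.4 CPM (adjusted p = 0.138). Cd36 was called lower without depleted 1 (adjusted p = 0.00462), with a log2 fold change of -9.50 in place of -4.19. Pparg, the main factor of fat cell formation, rose from 14.0, 16.6 and 8.62 to 24.3, 51.2 and 33.0 CPM (log2 fold change 1.47 ± 0.36, adjusted p = 0.0353). Of 17 tendon and fibroblast genes only Gsn, the actin-severing gelsolin, passed, from 668, 876 and 583 to 4422, 2162 and 1673 CPM (log2 fold change 1.96 ± 0.43, adjusted p = 0.0251). Skeletal muscle genes were low throughout, at a summed 72.8, 25.4 and 24.5 CPM after depletion and 10.7, 13.3 and 7.6 CPM without it. Of 7 tested genes in the nerve list 1 rose (14.3%, beside 10.1% of all genes) and 2 fell (28.6%, beside 14.2%). Of the 4 that passed the filter in both groups 1 fell and 0 rose. S100b rose, with the fragile call given above. Mbp, a myelin gene, fell from 23.8, 30.4 and 28.9 to 2.06, 0.646 and 1.17 CPM (adjusted p = 0.00206), and Erbb3 fell too (log2 fold change -2.89, adjusted p = 0.00418). Erg lost its call without nondepleted 1, 2 or 3 (adjusted p = 0.1, 0.139 and 0.125). Pparg lost it without depleted 2 or 3 or nondepleted 1, 2 or 3 (adjusted p = 0.0607, 0.0639, 0.104, 0.0773 and 0.0884) and Gsn without nondepleted 1, 2 or 3 (adjusted p = 0.099, 0.0791 and 0.093).

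Receptors by which macrophages sense stromal signals fell, while the ligand Il34 rose. Of 13 tested genes of macrophage growth factors and their receptors 7 fell (53.8%, beside 14.2% of all genes) and 1 rose (7.69%, beside 10.1%). Of the 11 that passed the filter in both groups 5 fell (45.5%, against 11.7% of all genes that did so). Csf2ra, a receptor chain for GM-CSF, went from 35.8, 34.0 and 40.7 to 18.5, 7.07 and 6.48 CPM (adjusted p = 0.0347), and Mif, a cytokine that many cells make, from 147, 161 and 202 to 69.5, 101 and 94.2 CPM (log2 fold change -0.95 ± 0.20, adjusted p = 0.0211). Among 19 complement genes 3 fell and 3 rose, 15.8% each, beside 14.2% and 10.1% of all genes. Of the 13 that passed the filter in both groups 1 fell and 2 rose. The anaphylatoxin receptors C3ar1 (0, 0.102 and 0.039 against 358, 405 and 342 CPM) and C5ar1 (0.0615, 0 and 0 against 214, 242 and 176 CPM) fell to near 0, whereas the protease C1s1, which acts in the classical pathway beside C1q, rose from 201, 107 and 71.2 to 452, 389.9 and 273 CPM (log2 fold change 1.56 ± 0.42, adjusted p = 0.0462). The other rises, C4a and C1rb, have close copies in the genome and are uncertain. In the Hedgehog pathway the transducer Smo rose from 93.3, 96.5 and 101 to 147, 150.4 and 200.5 CPM (log2 fold change 0.78 ± 0.15, adjusted p = 0.0179) and the effector Gli2 from 0.693, 0.888 and 0.217 to 2.12, 14.0 and 6.75 CPM (log2 fold change 3.66 ± 0.86, adjusted p = 0.0309), while the Notch ligand Jag2 fell from 6.4, 7.14 and 6.99 to 0.83, 0.442 and 0.624 CPM (adjusted p = 0.00128). Of 18 oxidative stress genes 2 fell (11.1%, beside 14.2% of all genes) and 1 rose (5.56%, beside 10.1%). Ftl1, the ferritin light chain, fell from 402, 464 and 390.1 to 149.7, 197 and 199 CPM (log2 fold change -1.20 ± 0.17, adjusted p = 0.00679). Prdx1 fell too (log2 fold change -0.66, adjusted p = 0.047) and Nqo1 rose (log2 fold change 1.97, adjusted p = 0.0109). Nqo1 lost its call without nondepleted 1 (adjusted p = 0.0515). Prdx1 lost it without depleted 1 or 3 or nondepleted 1, 2 or 3 (adjusted p = 0.0629, 0.0814, 0.128, 0.154 and 0.0911). Of 17 genes of collagen processing 4 fell (23.5%, beside 14.2% of all genes) and 1 rose. The falls included the lysyl hydroxylase Plod1 at 174, 171 and 328 against 508, 695 and 586 CPM (adjusted p = 0.0252). The 4 falls became 1, 2 and 3 without depleted 1, 2 and 3 in turn and 1, 0 and 0 without nondepleted 1, 2 and 3. C1s1 lost its call without depleted 1, 2 or 3 or nondepleted 2 or 3 (adjusted p = 0.103, 0.0863, 0.0572, 0.153 and 0.1). Smo lost it without nondepleted 1, 2 or 3 (adjusted p = 0.0818, 0.0866 and 0.0651) and Gli2 without depleted 2 or 3 or nondepleted 1, 2 or 3 (adjusted p = 0.0546, 0.0557, 0.102, 0.0885 and 0.084). Csf2ra lost it without depleted 2 or 3 or nondepleted 1, 2 or 3 (adjusted p = 0.0719, 0.0647, 0.0918, 0.0927 and 0.0924). Mif lost it without nondepleted 2 or 3 (adjusted p = 0.0691 and 0.0574) and Plod1 without depleted 1 or 2 or nondepleted 1, 2 or 3 (adjusted p = 0.0619, 0.0568, 0.0637, 0.0925 and 0.0692).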

How the data were processed

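RNA-seq counts per gene of the 6 bone-associated libraries were analysed. The deposited count table holds whole-number counts, made by the authors with STAR 2.7.9a and featureCounts of Subread 2.0.1 on GRCm39, with MultiQC 1.7 for quality, per the submitters' processing notes. No source used here gives the annotation release or the strand setting. Entries with no symbol held at most 0.0297% of a library's counts.

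Counts were scaled by TMM and tested with edgeR 4.0.16 (robust glmQLFit, glmQLFTest, R 4.3.3) on genes kept by filterByExpr, in which a gene needs about 10 counts in 3 libraries. Genes with an adjusted p (Benjamini-Hochberg over all 14638 genes) under 0.05 were called. Errors are SEs of log2 fold changes. Each group has 3 libraries. The fit was tested on simulated data, where it recovered 83% of 100 genes changed 8-fold and 76% of 100 changed 4-fold. Of the calls in that simulation 9.14% were false, more than the threshold of 0.05 allows for. DESeq2 1.42.0 and limma 3.58.1 served as alternatives.

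The groups, gene lists and rules were chosen with earlier results of these data known. Named were the targeted antigens and given markers, the 12 largest rises and falls (reaching 20 CPM in the higher group, and falls keeping 20 CPM), the 10 most abundant genes, the 10 most even and 10 most uneven rises (50 CPM), and in each list the largest changes, the most abundant member and members described by role. The 12 largest rises and falls were taken from called genes whose libraries did not overlap between groups. Same-numbered libraries were checked for pairing by the correlation of their deviations from the group means.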

Additional observations from a re-analysis of the deposited data

How the results depend on the processing

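Against 3556 calls (1476 higher, 2080 lower), a fit of all 12 libraries gave 5863 (2735 and 3128), DESeq2's Wald test 2287 higher, and a test against a 2-fold change 960 (155 and 805). Leaving out 1 library gave 1373 to 3340 calls, 315 to 1302 higher and 1058 to 2038 lower. The low ends came without nondepleted 1, 2 or 3, and 1352 of the 1373 calls without nondepleted 2 were shared with the full fit. Labels do not state that equal numbers pair libraries, and deviations from the group means correlated at 0.25, 0.04 and 0.08 for equal numbers, with depleted 2 closest to nondepleted 3. Depleted 1 had the female and nondepleted 1 the male pattern, so the libraries numbered 1 do not share a source, although their correlation was the highest. With the number as a replicate block, which joins these libraries all the same, 2340 genes were called, 886 higher and 1454 lower. Size factors, upper quartile scaling, voom with quality weights, no filter and a stricter filter kept each total within 1.5 times. Of 192 called genes that the naming rules chose or the text names, 103 kept the call whichever library was left out. Zeb2, not called with all 6 libraries (log2 fold change 0.06, adjusted p = 0.939 in edgeR), was called lower without depleted 2 (-0.76, adjusted p = 0.024), and over all single omissions its log2 fold change ran from -0.76 to 0.36. The cause of these shifts was not tested. At 0 counts a fall is known only as a bound.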
